A study of Mus musculus with 12 samples.

Results

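The cell-division kinases and cyclins described here are 10 genes of 20788 in the deposited table: Cdk1, its partner cyclins Ccna1, Ccnb1, Ccnb2 and Ccnb3, its activators Cdc25c and Plk1, and the Aurora kinases Aurka, Aurkb and Aurkc. They were chosen by symbol as machinery of cell division, with earlier results of overexpression against control_5NC already known, so their values in that comparison are a description, and nothing is read from counts of calls there. All 10 had whole-number counts in each library and passed the filter on low counts, as did 16395 genes in all.

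RNA was sequenced from whole testes of F1 mice, the offspring generation, of a strain labelled IRC mouse. Virus had been given to testes to raise or to inhibit lncRNA8276, a long non-coding RNA known by that label. The sample titles do not say whether the testes given virus were the F1 testes sequenced or those of a parent generation. The groups, each of 3 libraries, were overexpression (labelled 8276OV) and its control control_5NC (labelled 5NC), and knockdown (labelled 8276KD) and its control control_3NC (labelled 3NC). The controls were assigned by the order in which the design text names the groups. Not given in the sources used here are the age of the mice, the kind and dose of virus, the promoter it carried, the cells it reached, the time from virus to collection and what the control virus carried. Whether the 3 libraries of a group are separate animals is not stated, and p-values therefore reflect the spread among these libraries, which may be only technical. The labels were not checked against the level of lncRNA8276, which is not analysed here.

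Cdk1 is the kinase that drives cells into division, and it is active only when bound to an A-type or B-type cyclin and freed of inhibitory phosphates. In the testis it acts at the end of the long meiotic prophase, when spermatocytes enter the first meiotic division. Polo and Aurora kinases work beside it on centrosomes, spindle, kinetochores and cytokinesis, and germ cells carry their own versions of some of these proteins, such as cyclin A1 and Aurora C.

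Promoter windows from 250 bases before to 50 bases after the transcript start were examined for 8 of the 10 genes in RefSeq annotation of GRCm38.p6. Aurkb and Cdc25c had no window. The CCAAT box, bound by the factor NF-Y, and the cell-cycle homology region TTTGAA, read by the DREAM and MuvB complexes, are elements known from promoters of genes expressed in the G2 and M phases. The letters CCAAT, on either strand, were found in 7 of the 8 windows, against 37.4% of 32851 windows of the same length in the table. TTTGAA was found in 4 of 8, those of Cdk1, Ccnb2, Aurka and Plk1, against 17.9% of all windows. The cAMP response element TGACGTCA, used by many genes of spermatids, was in 0 of 8, against 1.79% of all windows. At so low a share 0 of 8 is what most sets of genes would give, so nothing is read from it. In the 4 windows printed here no matches overlap. Such matches describe the letters and do not show a bound site. These windows are printed 5′ to 3′ on the gene's strand, with CCAAT, its reverse complement ATTGG and TTTGAA in capitals. Cdk1, Ccna1 and Aurka are shown because their levels were highest in the same 3 libraries, and Ccnb2 because it had the highest mean level over the 12 libraries and its groups overlapped.

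Cdk1, chr10:69352863-69353162, minus strand: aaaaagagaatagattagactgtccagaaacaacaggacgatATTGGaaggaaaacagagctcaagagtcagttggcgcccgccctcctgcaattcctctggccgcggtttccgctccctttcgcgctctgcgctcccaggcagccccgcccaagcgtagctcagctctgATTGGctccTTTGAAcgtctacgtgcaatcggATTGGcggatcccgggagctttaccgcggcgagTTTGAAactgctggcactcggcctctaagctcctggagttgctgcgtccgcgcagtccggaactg
Ccna1, chr3:55055006-55055305, minus strand: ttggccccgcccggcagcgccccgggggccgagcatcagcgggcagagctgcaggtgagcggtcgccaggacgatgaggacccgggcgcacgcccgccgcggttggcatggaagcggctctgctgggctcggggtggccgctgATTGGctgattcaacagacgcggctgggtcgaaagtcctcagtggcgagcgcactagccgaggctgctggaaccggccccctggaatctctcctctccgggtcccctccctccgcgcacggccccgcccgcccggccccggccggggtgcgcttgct
Aurka, chr2:172370521-172370820, minus strand: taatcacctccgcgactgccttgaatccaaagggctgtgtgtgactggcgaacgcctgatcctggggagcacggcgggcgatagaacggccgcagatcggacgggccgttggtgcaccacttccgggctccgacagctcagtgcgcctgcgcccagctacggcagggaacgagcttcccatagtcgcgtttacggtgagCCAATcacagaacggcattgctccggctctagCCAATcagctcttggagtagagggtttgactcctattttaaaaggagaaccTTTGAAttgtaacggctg
Ccnb2, chr9:70421505-70421804, minus strand: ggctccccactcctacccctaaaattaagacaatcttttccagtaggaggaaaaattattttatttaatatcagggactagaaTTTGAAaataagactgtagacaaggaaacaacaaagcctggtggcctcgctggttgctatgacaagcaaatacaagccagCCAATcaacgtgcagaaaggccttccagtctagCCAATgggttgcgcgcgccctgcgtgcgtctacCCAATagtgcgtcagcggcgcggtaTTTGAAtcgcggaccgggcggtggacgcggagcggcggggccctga

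With the first transcribed base counted as 1 and the base before it as -1, the Cdk1 window holds ATTGG starting at -208, -80 and -48 and TTTGAA at -71 and -15. The Aurka window holds CCAAT at -51 and -19 and TTTGAA at 33. Ccna1, also highest in control_5NC below, has a single ATTGG at -107 and no TTTGAA in its window. That window, 55055006 to 55055305, lies within the Ccna1 gene as GENCODE M21 places it, 55045469 to 55055501. The bases before the GENCODE start of Ccna1 were therefore not examined. Ccnb2 holds CCAAT at -87, -54 and -21 and TTTGAA at -167 and 5, as many of each as Cdk1. Whether these letters go with the levels was not tested.

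In GENCODE M21 on GRCm38 all 10 genes are protein-coding. Cdk1 (Entrez 12534) lies on chromosome 10 at 69335146 to 69352938 and Aurkb (Entrez 20877) on chromosome 11 at 69045647 to 69051664. Ccna1 (Entrez 12427) lies on chromosome 3 at 55045469 to 55055501, and its exons overlap those of 4931419H13Rik on the opposite strand. Plk1 on chromosome 7 overlaps Gm44985 and Cdc25c overlaps Gm3550, both on the opposite strand. Whether counting used strand is not known, and reads of these 3 genes and of their antisense partners cannot be told apart.

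The 12 libraries held 13485479 to 15771655 counts over 18635 to 18911 genes. The 3 lowest totals belonged to overexpression 2, control_5NC 2 and control_5NC 3. Control_3NC 2 stood apart: its summed CPM (counts scaled to a common library size, by edgeR's normalised library sizes) over 13 leukocyte markers was 492.2, against at most 97.62 in the other libraries, and over 11 interferon-response genes 479.3, against at most 133.6. Epididymal transcripts summed to at most 304.4 CPM in overexpression and 627.3 CPM in control_5NC, and to at most 697.3 CPM in knockdown and 317.1 CPM in control_3NC. Summed markers of spermatogonia, meiotic cells, round and elongating spermatids, Sertoli cells and Leydig cells were above 0 CPM in every library, as the tissue label has it. No single marker was at 0 in all 12 libraries, which does not show each marker in every group.

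On the deposited expression scale, taken here as per transcript length, cyclin B2 had the highest mean over the 12 libraries. Only on this scale were genes set side by side. Ccnb2 had a level of 96.2 ± 6.71 (SD, n = 12 libraries), Ccna1 87.3 ± 12.1 and Aurka 85.3 ± 8.83, and the ranges of these 3 overlapped. Ccnb2 was above Ccna1 in 9 of 12 libraries, but in control_5NC the mean of Ccna1 (107 ± 1.69, n = 3) was above that of Ccnb2 (104.6 ± 1.54), and Ccna1 was above Aurka in 7 of 12. Plk1 (46.6 ± 4.47) and Ccnb1 (33.5 ± 2.68) followed, each apart in range from the next gene down. Aurkc (18.01 ± 2.05), Cdk1 (14.2 ± 2.54) and Cdc25c (12.2 ± 1.24) formed a group of overlapping neighbours. Aurkc was above Cdk1 in 11 of 12 libraries, and Cdk1 above Cdc25c in 7 of 12. Aurkb (7.64 ± 1.77) lay below Cdc25c in all 12 libraries although their ranges overlapped. Ccnb3 was lowest at 1.21 ± 0.312, with no overlap with Aurkb.

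**Figure D1:**
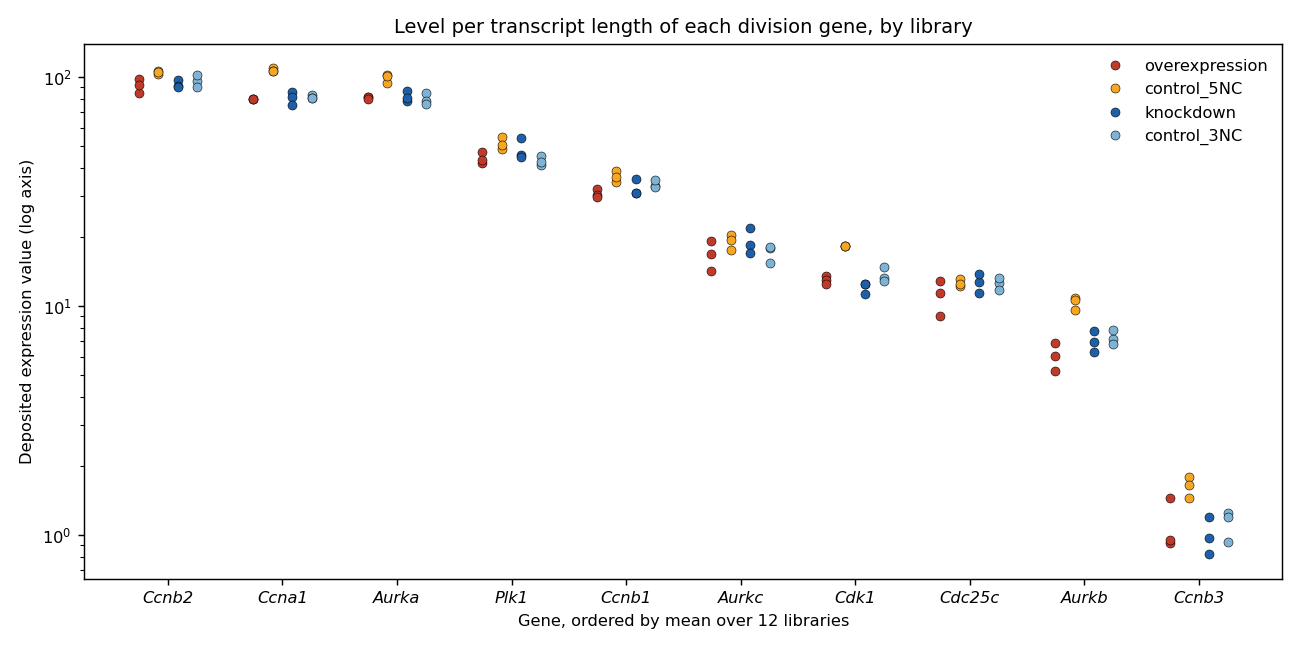
Deposited expression value, taken as per transcript length (log axis, unit not named in the file header), of the 10 genes, with a point for each library, grouped as overexpression, control_5NC, knockdown and control_3NC. Ccnb2, Ccna1 and Aurka lie together at the top with means of 96.2, 87.3 and 85.3, and Ccnb3 lies at the bottom with a mean of 1.21.

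Within families most of the level came from 1 member. Ccna1, the A-type cyclin of the germline, which male mice need to complete meiosis, made up 95.9% of the per-length level of Ccna1 and Ccna2 together. Ccna2, the A-type cyclin of dividing cells in general, made up 4.13%, with 6.03% in control_3NC 2 as its highest share. The counts of Ccna2 carry fractions in places, so its share is uncertain. Among B-type cyclins Ccnb2 made up 73.5% (71.8% to 74.8% over libraries), Ccnb1, the main mitotic cyclin, 25.6%, and Ccnb3, a cyclin of early meiotic prophase, 0.923%. Aurka, the kinase of centrosomes and spindle poles, made up 76.9% of the Aurora level (74.6% to 79.7%). Aurkc, the germline Aurora that can take the place of Aurkb, made up 16.3%, and Aurkb, the catalytic subunit of the chromosomal passenger complex, 6.83%. The share of Aurkb was 5.82% ± 0.844 in overexpression and 8.03% ± 0.111 in control_5NC, and 6.46% ± 0.389 in knockdown and 7.01% ± 0.649 in control_3NC (SD, n = 3 each). The share of Ccnb2 was 74.0% ± 1.17 in overexpression and 73.2% ± 1.40 in control_5NC. It was 73.4% ± 0.752 in knockdown and 73.1% ± 0.641 in control_3NC (SD, n = 3 each).

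Cdk1 itself was highest in the control_5NC libraries. In CPM it was at 37.5, 34.9 and 35.1 in overexpression, against 49.2, 48.4 and 48.6 in control_5NC. Knockdown libraries had 30.7, 34.2 and 33.8 CPM of Cdk1, against 36.7, 38.3 and 36.6 in control_3NC. Control_5NC was therefore above all 9 other libraries, whose highest value was 38.3 CPM. Overexpression was lower than control_5NC by a log2 difference of -0.44 ± 0.080 (SE of the fit), that is, 35.8 ± 1.45 CPM against 48.7 ± 0.408 CPM (SD, n = 3 each). The coefficient of variation of Cdk1 over the 3 control_5NC libraries was 0.837%, below the 3.74% that counting error alone gives at its mean count of 715.

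Ccna1 was the cyclin whose control_5NC libraries, like those of Cdk1, lay above all others. It was at 117, 112 and 119 CPM in overexpression, against 154, 146 and 149 CPM in control_5NC. Its levels were 123, 116 and 107 CPM in knockdown, against 121, 109.8 and 121 CPM in control_3NC. The highest value outside control_5NC was 123 CPM, and the other 3 groups overlapped. The log2 difference of overexpression from control_5NC was -0.37 ± 0.077 for Ccna1.

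The B-type cyclins showed smaller or more scattered differences. Ccnb1 was at 72.1, 65.9 and 67.7 CPM in overexpression, against 75.0, 82.1 and 78.2 CPM in control_5NC, without overlap and with a log2 difference of -0.19 ± 0.090. Ccnb2 was at 141, 118 and 134 CPM in overexpression, against 148, 141 and 144 CPM in control_5NC. The lowest control_5NC value of Ccnb2 lay just under the highest overexpression value, and the log2 difference was -0.14 ± 0.095. Ccnb3 was at 4.14, 6.32 and 4.31 CPM in overexpression, against 6.28, 7.69 and 7.19 CPM in control_5NC. Its groups touched through overexpression 2, and the log2 difference was -0.52 ± 0.21, or -0.74 without that library. In knockdown and control_3NC all 3 B-type cyclins overlapped, with 67.7 to 78.0 CPM against 68.4 to 81.3 CPM for Ccnb1, 126 to 137 against 119 to 149.7 for Ccnb2 and 3.63 to 5.25 against 4.33 to 5.57 for Ccnb3.

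The activators of Cdk1 showed small differences. Cdc25c, the phosphatase that removes inhibitory phosphates from Cdk1, was at 15.97, 18.9 and 20.8 CPM in overexpression, against 20.6, 19.98 and 19.6 CPM in control_5NC. Plk1, the Polo kinase that stimulates Cdc25c and acts at centrosomes and kinetochores, was at 100.3, 86.6 and 93.2 CPM in overexpression, against 113, 97.6 and 103 CPM in control_5NC. Groups overlapped for both genes, and the log2 differences were -0.11 ± 0.13 for Cdc25c and -0.16 ± 0.10 for Plk1. In knockdown Cdc25c ran from 19.99 to 22.3 CPM, against 18.5 to 23.5 CPM in control_3NC. Plk1 ran from 92.2 to 113 CPM in knockdown, against 81.5 to 94.9 CPM in control_3NC, and these ranges overlapped too.

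Of the Aurora kinases, Aurkb had the largest difference between overexpression and control_5NC of all 10 genes. Aurkb was at 9.72, 12.4 and 11.5 CPM in overexpression, against 19.6, 17.1 and 19.0 CPM in control_5NC. It was at 14.2, 12.8 and 11.5 CPM in knockdown, against 13.3, 13.6 and 13.1 CPM in control_3NC. No other library reached the lowest control_5NC value, and the log2 difference of overexpression from control_5NC was -0.73 ± 0.12. Aurka was at 148, 142 and 146 CPM in overexpression, against 179, 162 and 174 CPM in control_5NC, without overlap and with a log2 difference of -0.24 ± 0.079. It was at 154, 138 and 142 CPM in knockdown, against 151, 131 and 140.2 CPM in control_3NC. Aurka too was highest in the 3 control_5NC libraries, but the nearest other library, knockdown 1, was close to them. Aurkc, by contrast, overlapped throughout, with 27.1, 22.7 and 20.4 CPM in overexpression, against 26.9, 23.9 and 25.5 CPM in control_5NC, and 28.9, 26.7 and 23.1 CPM in knockdown, against 24.2, 20.8 and 25.5 CPM in control_3NC. The log2 difference of overexpression from control_5NC was -0.12 ± 0.13 for Aurkc.

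**Figure D2:**
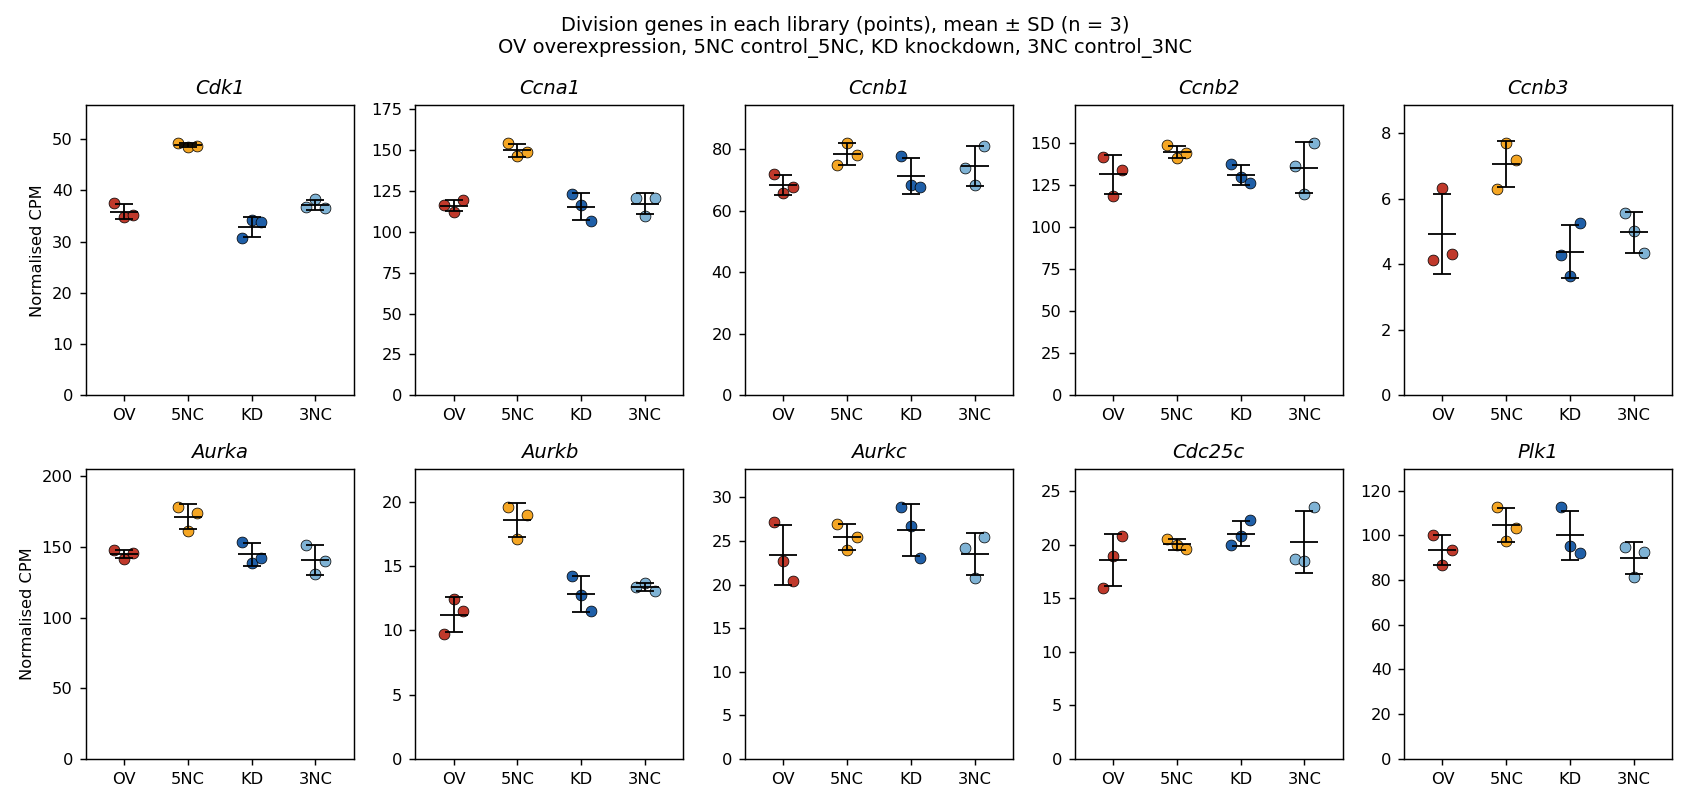
Normalised CPM of the 10 genes, 1 panel each, with a point per library and the mean ± SD of the 3 libraries in overexpression, control_5NC, knockdown and control_3NC. In the panels of Cdk1, Ccna1, Aurka and Aurkb the 3 control_5NC points lie above all 9 others, while those of Ccnb1, Ccnb2, Ccnb3, Aurkc, Cdc25c and Plk1 overlap with other groups.

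Set against control_5NC, then, all 10 genes were lower on average in overexpression. Of the 16395 genes tested, 52.0% were below 0 in that comparison, and the median was -0.22 for the 10 genes and -0.01 over all genes (log2). 2 of the 10, Cdk1 and Aurkb, passed an adjusted p of 0.05 in edgeR's quasi-likelihood test as lower, where 0.22% of all genes did. In 5 of the 10, Cdk1, Ccna1, Ccnb1, Aurka and Aurkb, the 3 overexpression libraries were all below the 3 of control_5NC, as in 10.3% of all genes. These counts describe the comparison the genes were chosen from. The call of Cdk1 held in 4 of the 12 fits that each left out 1 library, those without overexpression 2 or any control_3NC library. The call of Aurkb held in 6, these 4 and those without knockdown 1 or knockdown 3. Among the fits without a library of the comparison itself, either call held only without overexpression 2. With 1 library left out the log2 differences ran from -0.48 to -0.42 for Cdk1 and from -0.81 to -0.64 for Aurkb. The small ones moved more, from -0.20 to -0.02 for Cdc25c, from -0.24 to -0.03 for Aurkc, from -0.20 to -0.07 for Ccnb2 and from -0.22 to -0.11 for Plk1. The 10 genes together summed to 648 ± 26.4 CPM in overexpression and 768 ± 23.0 CPM in control_5NC (SD, n = 3 each).

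Levels of cell type markers moved beside this difference, though with all 12 libraries edgeR called 0 of the spermatid markers. At an unadjusted p under 0.05, 8 of 16 round and 8 of 15 elongating spermatid markers were higher, as were 8.9% of all genes. With 1 library left out edgeR called 0 to 4 of the round and 0 to 5 of the elongating ones. Without control_3NC 2 it called 4 and 5, and 521 of all genes. All 16 round spermatid markers were above 0 in overexpression against control_5NC, with a median log2 difference of 0.34, and their summed CPM was 3092 to 4187 in overexpression and 2788 to 3546 in control_5NC. Of 15 elongating spermatid markers 13 were above 0, with a median of 0.37, and sums of 24470 to 31820 CPM in overexpression and 22920 to 27340 CPM in control_5NC. The 16 markers of pachytene and diplotene spermatocytes, the cells that express much of this machinery, summed to 9790 to 9989 CPM in overexpression and 9605 to 10100 CPM in control_5NC. Of these 7 were above 0 (median -0.04). The 20 markers of meiotic prophase summed to 2357 to 2741 CPM in overexpression and 2226 to 2823 CPM in control_5NC. Of those 11 were above 0 (median 0.03). Spermatogonial markers were above 0 in 7 of 14 tested (median -0.01). The sums over 15 such markers were 174.8 to 192.7 CPM in overexpression and 178.9 to 183.9 CPM in control_5NC. Leydig cell markers were above 0 in 9 of 11 (median 0.24), with sums of 2085 to 2344 CPM in overexpression and 1548 to 2120 CPM in control_5NC. Sertoli cell markers were above 0 in 9 of 16 (median 0.03), with sums of 1258 to 1382 CPM in overexpression and 1160 to 1271 CPM in control_5NC. Of these, edgeR called 1 each, named after their values were seen: Cyp21a1, higher by 1.41 ± 0.18 (adjusted p = 0.0089), and Cst9, higher by 2.22 ± 0.38 (adjusted p = 0.0449). With 1 library left out, a Sertoli marker was called only without knockdown 2, knockdown 3, control_3NC 2 or control_3NC 3. A Leydig marker was called in all left-out fits except those without overexpression 1 or control_5NC 3. In whole testis, fewer cells of a type and less RNA per cell cannot be told apart, and the part of these cell types in the result was not tested.

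Knockdown against control_3NC shares no library with the comparison the genes were chosen from. Here 0 of the 10 genes passed, where 0.0183% of all genes did, and DESeq2 and limma-voom also called 0 of them. At an unadjusted p under 0.05 edgeR gave 1 of the 10, Cdk1, and 8.69% of all genes. The median log2 difference was -0.03 for the 10 genes, as over all genes (also -0.03), with 4 genes above 0 and 6 below.

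Of the 10 genes only Cdk1 had groups that did not overlap in this comparison, with the 3 knockdown libraries below the 3 of control_3NC, as for 6.57% of all genes. It averaged 32.9 ± 1.92 CPM in knockdown and 37.2 ± 0.971 CPM in control_3NC (SD, n = 3 each). The log2 difference of -0.18 ± 0.080 did not pass (adjusted p = 0.559, edgeR quasi-likelihood test), with a 95% interval of -0.35 to -0.01. Its unadjusted p of 0.0442 in edgeR stayed under 0.05, among the fits that each left out 1 library, only without overexpression 2.

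For Aurkb, at 12.8 ± 1.39 CPM in knockdown and 13.3 ± 0.298 CPM in control_3NC (SD, n = 3 each), the log2 difference was -0.06 ± 0.12 (edgeR, adjusted p = 0.874). Its 95% interval was -0.33 to 0.21. For Ccna1 the log2 difference was -0.02 ± 0.077 (edgeR, adjusted p = 0.931), with an interval of -0.19 to 0.15. Aurka, at 0.04 ± 0.079 (edgeR, adjusted p = 0.855), had an interval of -0.13 to 0.21. Plk1 and Aurkc had the highest values, both at 0.16, with adjusted p = 0.596 for Plk1 and 0.659 for Aurkc by edgeR, and intervals of -0.06 to 0.38 and -0.12 to 0.44. Ccnb1 (-0.06), Ccnb2 (-0.05), Ccnb3 (-0.18) and Cdc25c (0.06) had intervals that all held 0.

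Without control_3NC 2, the library rich in leukocyte and interferon transcripts, 2 of the 10 genes were above 0 and 8 below, between -0.18 and 0.09, and their median was -0.05. Leaving out control_3NC 3 instead put 7 above 0 and 3 below, so the balance of signs rested on single libraries. Round spermatid markers were above 0 in 16 of 16 in knockdown against control_3NC, with a median of 0.10, but in 6 of 16 without control_3NC 2. Their summed CPM was 3627 to 3842 in knockdown and 2653 to 3757 in control_3NC, and their part in the result was not tested.

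**Figure D3:**
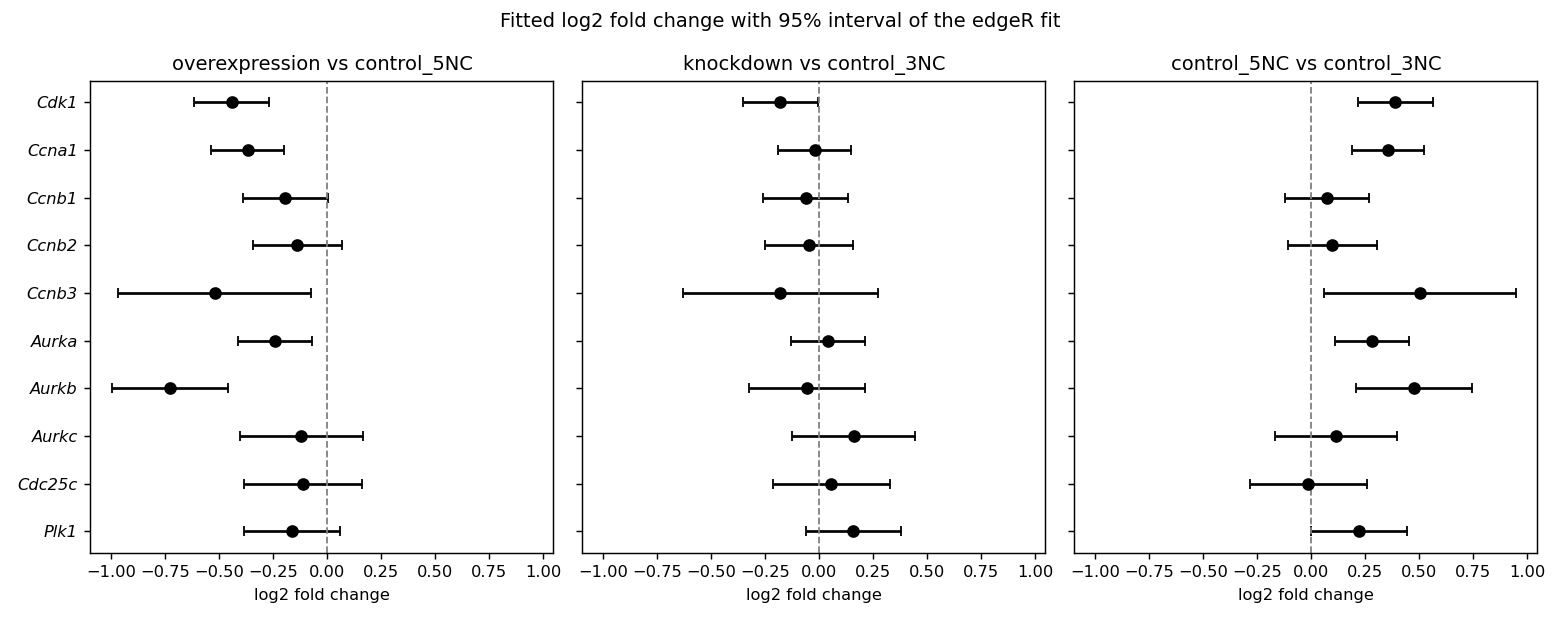
Log2 fold change of the 10 genes in overexpression against control_5NC, knockdown against control_3NC and control_5NC against control_3NC, with bars for the 95% interval of the fit. All 10 points are below 0 in the first panel, 4 are above 0 in the second and 9 in the third, where Ccnb3 (0.50), Aurkb (0.48), Cdk1 (0.39) and Ccna1 (0.35) lie highest.

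The control groups were also set against each other, a comparison that shares the control_5NC libraries with the first. The genes were chosen with that first comparison known, so the values and counts here, also those against all 9 other libraries, are a description. In control_5NC against control_3NC 9 of the 10 genes were above 0, while 53.4% of all genes were below 0, and the median was 0.25 for the 10 and -0.02 over all genes (log2). The values were 0.39 ± 0.080 for Cdk1, 0.35 ± 0.077 for Ccna1, 0.48 ± 0.12 for Aurkb, 0.28 ± 0.079 for Aurka, 0.50 ± 0.21 for Ccnb3 and 0.22 ± 0.10 for Plk1. In these 6 genes all control_5NC libraries were above all control_3NC libraries, as in 7.02% of all genes. By edgeR 0 of the 10 were called, where 0.244% of all genes were, and limma-voom also called 0. DESeq2 called 3, namely Cdk1, Ccna1 and Aurka, and 299 of all genes. EdgeR with total counts in place of scaling factors called 1, Ccna1, and 68 of all genes. With a term for the 3 libraries of lowest total, a choice made after the data were seen, Ccnb3 moved to 0.23 and Plk1 to 0.33. The control_5NC libraries were above all 9 other libraries in 4 of the 10 genes, Cdk1, Ccna1, Aurka and Aurkb, as in 3.06% of all genes. Spermatid markers lay on the other side of 0. Of 16 round spermatid markers 13 were below 0 in control_5NC against control_3NC (median -0.20), and of 15 elongating spermatid markers 11 (median -0.23). Without control_3NC 2 these were 16 of 16 (median -0.36) and 14 of 15 (median -0.38). Round spermatid markers summed to 2788 to 3546 CPM in control_5NC and 2653 to 3757 CPM in control_3NC, and their part in the result was not tested. The sum over the 10 genes was 768 ± 23.0 CPM in control_5NC and 657 ± 43.9 CPM in control_3NC, with 648 ± 26.4 in overexpression and 660 ± 38.0 in knockdown (SD, n = 3 each).

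Overexpression was also set directly against the other groups, sharing its libraries with the first comparison, so these values too are a description. Against knockdown, 5 of the 10 genes were above 0 and 5 below. By edgeR 0 of the 10 passed, as did 0 of all genes (0%), where 343 genes (2.09%) had an unadjusted p under 0.05, and DESeq2 called 12 genes and limma-voom 0, with 0 of the 10 by either. Cdk1 was higher in all 3 overexpression libraries than in all 3 knockdown libraries, as were 5.56% of all genes, with a log2 difference of 0.13 ± 0.080 and an interval of -0.05 to 0.30. Aurkb lay at -0.20 ± 0.12, with an interval of -0.47 to 0.08. Aurka differed by 0.00 ± 0.079 and Ccna1 by 0.01 ± 0.077. Against control_3NC, a comparison added after the data were seen, 0 of the 10 passed (0.0061% of all genes did), with 0 by DESeq2 and limma-voom too. Aurkb was lower there by -0.25 ± 0.12 with no overlap, as in 3.21% of all genes, with 11.2 ± 1.36 CPM in overexpression and 13.3 ± 0.298 CPM in control_3NC (SD, n = 3 each). Cdk1 differed by -0.05 ± 0.080 there, against -0.44 ± 0.080 from control_5NC.

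The difference between both effects, overexpression minus control_5NC less knockdown minus control_3NC, was below 0 in all 10 genes, where 45.3% of all genes were below 0. It contains the comparison the genes were chosen from, so its values are a description. Aurkb had -0.67 ± 0.18, Ccna1 -0.35 ± 0.11, Plk1 -0.32 ± 0.14, Aurka -0.28 ± 0.11 and Cdk1 -0.26 ± 0.11 (log2). None of the 10 was called by edgeR, DESeq2 or limma-voom, where edgeR called 0.0183% of all genes. At an unadjusted p under 0.05 edgeR gave 5 of the 10, all below 0, and 2.8% of all genes as below 0.

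The genes did not vary as a block from library to library. Over the 12 libraries the correlation of log2 CPM between pairs of the 10 ran from -0.17 (Ccnb3 with Aurkc) to 0.92 (Ccna1 with Aurka). The libraries share depth, scaling and group differences, so these values are descriptive. After each group's mean was taken out, Ccna1 and Aurka were still at 0.72, and Aurka and Plk1 at 0.87. Cdk1, by contrast, had 0.85 with Ccna1 and 0.76 with Aurkb over all libraries, but -0.53 and -0.65 within groups. Its within-group values were negative with all 9 other genes, but its coefficient of variation within groups, 4.05% in overexpression, 0.837% in control_5NC, 5.85% in knockdown and 2.61% in control_3NC, was near or below counting error (3.74% to 4.43%), so little can be read from them.

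Of 9859 other genes with a mean of at least 10 CPM, those whose log2 CPM was most like that of Cdk1 over the 12 libraries were Marc2 (r = 0.969), Jagn1 (0.968), Zfp110 (0.949), Slc15a4 (0.947) and Zscan22 (0.937). Within groups their correlation with Cdk1 was 0.50, 0.27, 0.27, 0.65 and 0.30. All were higher in control_5NC, for example Marc2 at a mean of 52.2 CPM in control_5NC and 30.3 CPM in the other libraries. The genes most like Aurkb were Osbpl2 (r = 0.960), Spdye4a (0.954), Cnst (0.944), Ahsa2 (0.932) and Plekhd1 (0.927). Within groups the values were 0.94, 0.72, 0.63, 0.76 and 0.87, which the choice by correlation over the same libraries tends to raise. None of the 10 division genes was among either set of 5.

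Other genes of the division machinery were taken as 5 lists. In overexpression against control_5NC 0 of their 86 tested genes passed in edgeR, with 25 at an unadjusted p under 0.05, and limma-voom called 0 and DESeq2 10. Without control_3NC 2 edgeR called 3 of the spindle and condensation list, Ndc80, Ncaph and Nusap1, and 2 of the other cyclins and Cdks, Ccnf and Cdk6, all lower in overexpression. It called Ccnf alone without control_3NC 1, Ccnf, Ndc80 and Ncaph without control_3NC 3, and Sgo2a, Ndc80, Nusap1 and Smc2 without overexpression 2. Cdk6, Sgo2a, Ndc80 and Smc2 are named after their values were seen. Over all genes edgeR called 78 with all libraries and DESeq2 742. Calls by edgeR over all genes were 521 without control_3NC 2, 69 without control_3NC 1, 267 without control_3NC 3 and 217 without overexpression 2. In knockdown against control_3NC 0 of the 86 passed in edgeR, DESeq2 or limma-voom, with 7 at an unadjusted p under 0.05 in edgeR, and 0 in edgeR with any 1 library left out. The 25 and the 7 count both directions, and in either direction 15.3% and 8.69% of all genes were at that level in these comparisons. The share of all genes lower at that level was 6.39% in overexpression against control_5NC and 5.43% in knockdown against control_3NC. The spindle and chromosome condensation list, with condensins, kinesins and spindle proteins, had 20 of 22 tested genes below 0 in overexpression against control_5NC, 11 of them at an unadjusted p under 0.05, with a median of -0.27 (log2, edgeR) against -0.01 for all genes. It had 17 of 22 below 0 in knockdown against control_3NC, 2 of them at that level, with a median of -0.13, and 19 of 22 without control_3NC 2. Nusap1, a spindle-binding protein, was its lowest gene in overexpression, with 49.7 ± 8.21 CPM against 73.6 ± 11.3 CPM in control_5NC and a log2 difference of -0.57 ± 0.14. Ncaph2, a condensin II subunit, was its highest at 0.12 ± 0.089. Smc4, the core condensin ATPase, was lowest in knockdown, with 511 ± 17.8 CPM against 637 ± 81.2 CPM in control_3NC and a log2 difference of -0.32 ± 0.14. Ncaph, a condensin I subunit, was highest there at 0.22 ± 0.10.

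With all 12 libraries, Ncaph was the only gene of the 5 lists called by edgeR in any of these comparisons. It was higher in control_5NC, with 29.5 ± 2.08 CPM against 19.8 ± 1.30 CPM in control_3NC (SD, n = 3 each) and a log2 difference of 0.57 ± 0.10 (edgeR, adjusted p = 0.0455). That call was lost in 11 of the 12 fits that left out 1 library, all except that without control_3NC 2, and with limma-voom (adjusted p = 0.0542). In overexpression Ncaph had 21.1 ± 1.47 CPM, a log2 difference of -0.48 ± 0.10 from control_5NC.

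The partners of Aurora and Polo kinases, such as Incenp, the scaffold of the chromosomal passenger complex, had 11 of 14 genes below 0 in overexpression against control_5NC (median -0.19) and 12 of 14 below 0 in knockdown against control_3NC (median -0.10). Incenp had 58.1 ± 4.29 CPM in overexpression and 67.9 ± 8.10 CPM in control_5NC, a log2 difference of -0.23 ± 0.11, and was the highest of the list in knockdown against control_3NC at 0.10 ± 0.11. Plk3 was lowest in overexpression at -0.82 ± 0.58, from under 1 CPM in both groups. Sgo1, a protector of centromeric cohesion, was highest in overexpression at 0.15 ± 0.20 and lowest in knockdown, with 2.32 ± 0.158 CPM against 3.58 ± 0.240 CPM in control_3NC and -0.62 ± 0.20 (edgeR, adjusted p = 0.559).

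The anaphase-promoting complex and spindle checkpoint list had 16 of 23 below 0 in overexpression against control_5NC (median -0.10) and 11 of 23 below 0 in knockdown against control_3NC (median 0.02). Cdc26, a small subunit of the complex, was the lowest gene in both. It had 13.7 ± 0.660 CPM in overexpression against 17.8 ± 1.51 CPM in control_5NC, and 14.0 ± 0.441 CPM in knockdown against 17.9 ± 1.32 CPM in control_3NC. The log2 differences were -0.37 ± 0.11 and -0.35 ± 0.11, and neither passed in edgeR. Anapc13, another subunit, was highest in overexpression at 0.41 ± 0.13, and Fzr1, the Cdh1 activator of the complex, highest in knockdown at 0.34 ± 0.17.

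Regulators of Cdk1 had 17 of 18 listed genes tested, since Wee2 failed the filter, with 10 below 0 in overexpression against control_5NC (median -0.02) and 14 below 0 in knockdown against control_3NC (median -0.15). Pkmyt1, a kinase that inhibits Cdk1, was highest in both, with 38.3 ± 7.22 CPM in overexpression against 31.3 ± 3.89 CPM in control_5NC, and 38.3 ± 1.28 CPM in knockdown against 28.9 ± 7.20 CPM in control_3NC. The log2 differences were 0.29 ± 0.18 and 0.41 ± 0.18 (edgeR, adjusted p = 0.498 and 0.559), and that in knockdown was 0.22 without control_3NC 2. Cdkn1b, an inhibitor of cyclin-dependent kinases, was lowest in overexpression at -0.34 ± 0.20. Cdkn1a, a related inhibitor, was lowest in knockdown at -0.50 ± 0.33, but was at 0.16 without control_3NC 2.

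Other cyclins and cyclin-dependent kinases had 7 of 10 genes below 0 in overexpression against control_5NC and 6 of 10 in knockdown against control_3NC, each with a median of -0.07; without control_3NC 2 the median in knockdown was 0.12. Ccnf, the F-box cyclin of G2 phase, had 14.2 ± 0.522 CPM in overexpression and 20.3 ± 0.644 CPM in control_5NC, a log2 difference of -0.52 ± 0.10, and 14.3 ± 0.159 CPM in knockdown against 15.5 ± 1.67 CPM in control_3NC, a log2 difference of -0.12 ± 0.10. Ccnd3 was highest in both comparisons, at 0.26 ± 0.17 and 0.22 ± 0.17. Ccnd2 was lowest in knockdown at -0.72 ± 0.43, but was at 0.18 without control_3NC 2.

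**Figure D4:**
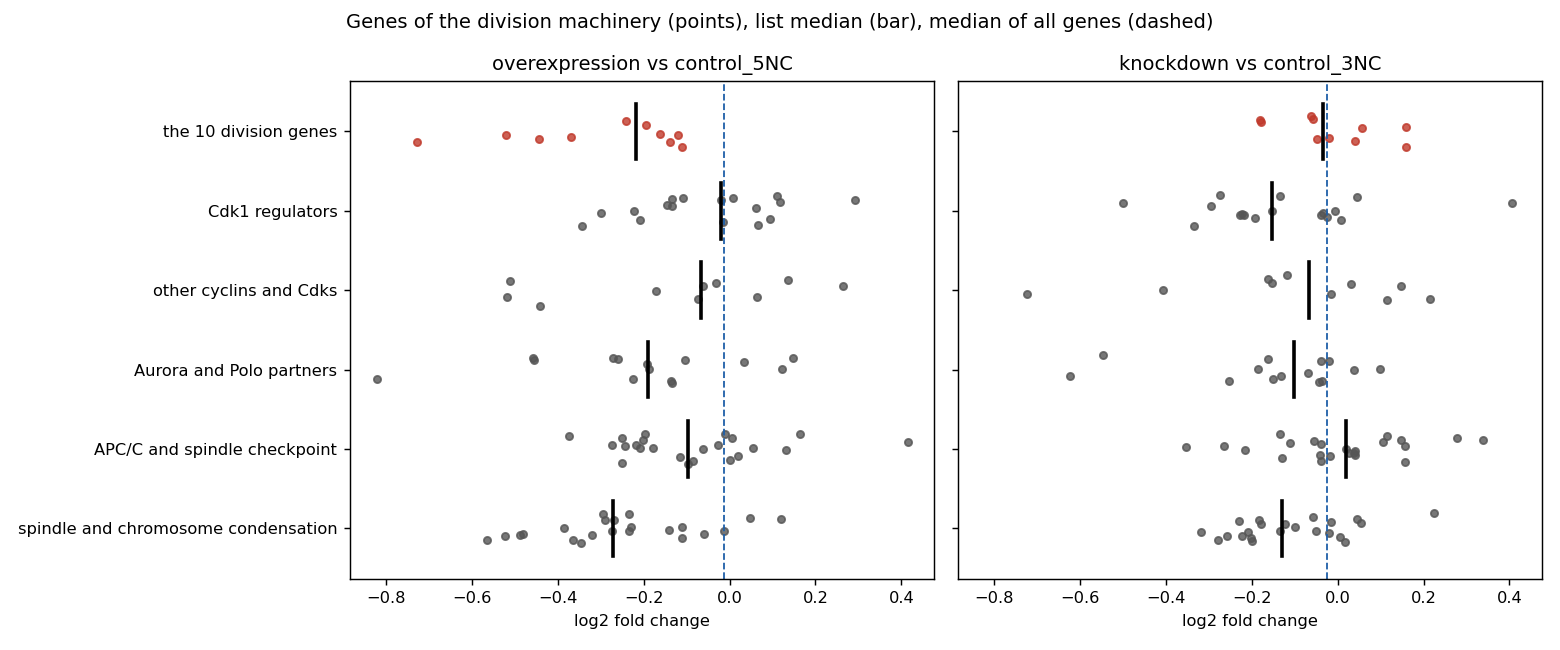
Log2 fold change of each tested gene in the 10 division genes and 5 further lists of the division machinery, in overexpression against control_5NC and in knockdown against control_3NC, with the median of each list as a bar. Spindle and chromosome condensation genes have a median of -0.27 in the first comparison and -0.13 in the second, the largest shift among the 5 further lists in the first.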

How the data were processed

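RNA sequencing of F1 mouse testes gave 12 libraries in 4 groups of 3, taken from the sample titles. Each gene has an estimated count in a column named as read count, per the file headers, with 88.2% of the deposited values whole, and an expression value whose unit the header does not name. The expression value was taken as a level per transcript length, which was not checked against gene lengths. This deposited score was used only to set genes side by side. Per the submitters' processing notes the build was mm10. Not given in the sources used here are the aligner, the counter, the annotation and the use of strand. The table's other 18 per-sample columns were not used.

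Estimated counts were rounded, genes kept by filterByExpr (minimum count 10; 16395 of 20788) and libraries scaled by TMM in edgeR 4.0.16 (R 4.3.3). Group means were fitted to all 12 libraries in 1 robust quasi-likelihood model (common dispersion 0.0388). Benjamini-Hochberg adjustment ran over all genes tested, with 0.05 as the threshold. The test was run first on simulated data. DESeq2 1.42.0, limma-voom (limma 3.58.1), RLE or total-count scaling, no filter, a replicate block, only the libraries compared and leaving out each library were alternatives. Log2 fold changes have the SE of the fit, CPM values the SD over libraries. Group mean counts were lowest for Ccnb3 (68 in knockdown) and highest for Aurka (2516 in control_5NC), which sets the precision, and reads are not independent molecules. Chi-square per degree of freedom between libraries of a group was 3.04 to 39, so none was treated as a copy.

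The 10 genes, the lists and the tests were chosen with earlier results of these data known. Beside the 10, the genes named by rule are those of the 5 division lists called in any comparison, the highest and lowest of each list in overexpression against control_5NC and knockdown against control_3NC, and the 5 most like Cdk1 and Aurkb by Pearson correlation of log2(CPM + 0.5).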

Additional observations from a re-analysis of the deposited data

How the results depend on the processing

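All 10 genes stayed below 0 in overexpression against control_5NC under each of 20 alternatives. They were chosen with that comparison known, so this is a description. The alternatives without a knockdown or control_3NC library also keep all libraries of that comparison. Under the 20 alternatives 0 of the 10 were called in knockdown against control_3NC, or in overexpression against knockdown or against control_3NC. Over 19 alternatives 0 of the 10 were called in the difference of both effects. What changed was the number of calls, and the cause was not tested. In overexpression against control_5NC 2 of the 10 were called by edgeR, 4 by DESeq2, 1 without a filter on low counts and 1 with only the libraries compared, in both cases Aurkb, and 0 to 3 when 1 library was left out. In control_5NC against control_3NC 0 were called, 3 by DESeq2 and 1 with total counts only.

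Over all genes, overexpression against control_5NC gave 78 calls, 742 by DESeq2, 163 with total counts only and 5 to 521 without 1 library, the lowest without overexpression 1 or control_5NC 3 and the highest without control_3NC 2. Knockdown against control_3NC gave 3 calls, 23 by DESeq2, 0 with only the libraries compared and 1 to 9 without 1 library, the highest without control_3NC 3. Control_5NC against control_3NC gave 40 calls, 299 by DESeq2, 13 by limma-voom, 68 with total counts only, 9 with only the libraries compared, 6 with a term for the 3 libraries of lowest total, and 7 to 126 without 1 library, the highest without control_3NC 2. That comparison's calls were 15 higher and 25 lower, but 34 and 34 with total counts only. Overexpression against knockdown gave 0 calls, 12 by DESeq2 and 0 to 2 without 1 library. Overexpression against control_3NC, added after the data were seen like the term for low totals, gave 1 call, 11 by DESeq2, 0 by limma-voom, 0 with only the libraries compared, 2 with that term and 1 to 5 without 1 library. The difference of both effects gave 3 calls, 53 by DESeq2 and 3 to 12 without 1 library.

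The replicate numbers were not taken as pairs, because the titles give only a number and not every same-number pair deviated together. Correlations of deviations from the group means were -0.125 to 0.313 over 18 same-number pairs, 8 of them over 0.1, and -0.412 to 0.271 over 36 other pairs, and 8 of 12 libraries were closest to their own number, a hint from the data that some numbers go together. With the number as a block, overexpression against control_5NC gave 269 calls, with 3 of the 10 genes among them, and the difference of both effects 6. Depth limits Ccnb3 most, with a counting error of 9.85% to 12.1% at its group mean counts.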
